A study of Capra hircus with 20 samples.

Results

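The annotated lncRNA table of cultured goat adipose cells held 161 transcripts typed as misc_RNA, from 159 genes, besides those typed as lncRNA. The 112 misc RNAs described here, from 111 genes, were selected on their measured level, with 1 FPKM or more as the average of the 20 libraries. FPKM is the number of fragments of a transcript divided by its length and by the sequenced fragments of the library. The cells came from male Jianzhou Daer goats of 7 days, from the longissimus dorsi muscle for intramuscular cells and from subcutaneous fat for subcutaneous cells, and were used at the third passage. The 4 groups of 5 libraries were intramuscular preadipocytes (IMPA) and subcutaneous preadipocytes (SPA) on day 0, and intramuscular adipocytes (IMA) and subcutaneous adipocytes (SA) that had been kept with oleic acid for 3 days. The labels name no genetic change in any group. The study's methods describe 5 goats and call the libraries of a group biological replicates, but no source used here gives the goat behind a replicate number.

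In RefSeq, misc_RNA is the molecule type of transcripts that are placed in none of the usual classes of non-coding RNA. Transcribed pseudogenes are copies of a parent gene that have lost an intact reading frame but are still read into RNA. Many copies arose from a processed mRNA that was inserted elsewhere in the genome, often inside an intron of another gene. Their reads can be nearly identical to those of the parent gene, so the level of a single copy is uncertain wherever an aligner had to divide reads between copies.

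In the RefSeq table of the assembly ARS1.2, where the 161 accessions were matched to their genes, 104 of the 112 misc RNAs belonged to transcribed pseudogenes and 8 to genes typed as misc_RNA. Of the symbols, 111 were LOC numbers, and the single other symbol was C23H6orf136. No misc RNA shared a gene ID with an mRNA or a typed lncRNA, so the only host that could be named was a protein-coding gene whose RefSeq span overlaps that of the misc RNA. Such a gene was found for 48 misc RNAs, 57 lay outside coding genes and 7 were on unplaced sequence. A misc RNA called inside a gene below has a span that overlaps it, and full containment was not checked.

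The defining adipocyte markers were mostly low. The summed FPKM of the 9 adipocyte markers found was 11.4 to 12.2 in IMPA, 12 to 13.4 in IMA, 10.8 to 12.2 in SPA and 10.7 to 13.5 in SA, and ADIPOQ, PLIN1, PLIN4 and LEP stayed at group means of 0.42 FPKM or less. Of the other markers, CEBPA fell from 9.23 FPKM in IMPA to 5.42 in IMA and from 5.05 in SPA to 3.91 in SA. CIDEC had 4.65 in SPA and 4.35 in SA. CD36 went from 0.252 in IMPA to 4.91 in IMA and from 0.0679 in SPA to 0.934 in SA. The mean log2(FPKM + 1) of the 9 markers was higher by 0.16 after induction in both depots (two-sided exact permutation test, p = 0.00794 in each, the smallest that 5 against 5 libraries can give). This rise was not shared by the whole list, and the part of single genes in it was not computed. In intramuscular cells CD36 had the largest rise, and ADIPOQ, PLIN1 and PLIN4 were slightly higher. CEBPA, CIDEC, PPARG (0.475 to 0.364 FPKM) and LPL (1.02 to 0.941) were lower there. In subcutaneous cells PPARG went from 0.624 to 1.03 FPKM and LPL from 0.549 to 1.34, while CEBPA and CIDEC were lower. In intramuscular cells 1 marker had a transcript called higher with induction and 1 a transcript called lower (limma). In subcutaneous cells these counts were 0 and 1 (limma, 1 and 1 at an unadjusted p under 0.05), with 3 transcripts of the list tested. The 11 skeletal muscle markers found summed to 3241 to 3717 FPKM in IMPA and 11222 to 11932 in IMA, against 6.64 to 22.4 in SPA and 7.42 to 8.93 in SA, with the myogenic factor MYOG at a mean of 649 FPKM in IMPA. The 7 proliferation markers summed to 117 to 147 FPKM in IMPA, 108 to 133 in IMA, 45.1 to 52.1 in SPA and 242 to 272 in SA. The 9 stromal markers, collagens and DCN among them, summed to 6108 to 8610 FPKM in IMPA, 7672 to 8510.3 in IMA, 12685 to 13430.4 in SPA and 12136 to 12946 in SA. The 5 endothelial markers reached at most 0.946 FPKM in sum and the 4 macrophage markers found at most 2.82. Muscle markers were thus higher in intramuscular cells, and with induction 8 of the 11 had a transcript called higher there and 1 lower (limma). The sum of the stromal markers was higher in subcutaneous cells, where 5 of the 9 had a transcript called lower with induction and 1 higher. DCN was at 660 FPKM in IMPA and 5441 in SPA, while COL3A1 was at 4444 and 4303. Of the 9, 5 had a transcript called lower in IMPA than in SPA, and 6 lower in IMA than in SA. At both times 0 had one called higher (limma, also 0 at an unadjusted p under 0.05). Proliferation markers differed with both depot and stage. Their part in the differences below was not tested, and fewer cells of a type cannot be told apart from less RNA per cell in such libraries.

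Abundance was very uneven. The misc RNA LOC102180517 (XR_001917728.1), on unplaced sequence, had a mean of 2199 FPKM, and the next, LOC108637143 (XR_001918790.1), 364 FPKM. A further 6 were at 100 FPKM or more, 23 between 10 and 100, 52 between 2 and 10, and 29 under 2. The median of the 112 means was 4.53 FPKM, against 2.59 for the 360 typed lncRNAs that passed the same threshold and 5.00 for the mRNAs that did. The most abundant typed lncRNA had a mean of 1483 FPKM, below that of LOC102180517. The share that passed was 69.6% of the misc RNAs and 38.6% of the typed lncRNAs. All 112 together held 0.568% to 1.10% of the FPKM sum of a library, which ranged from 527426 to 596669.

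**Figure D1:**
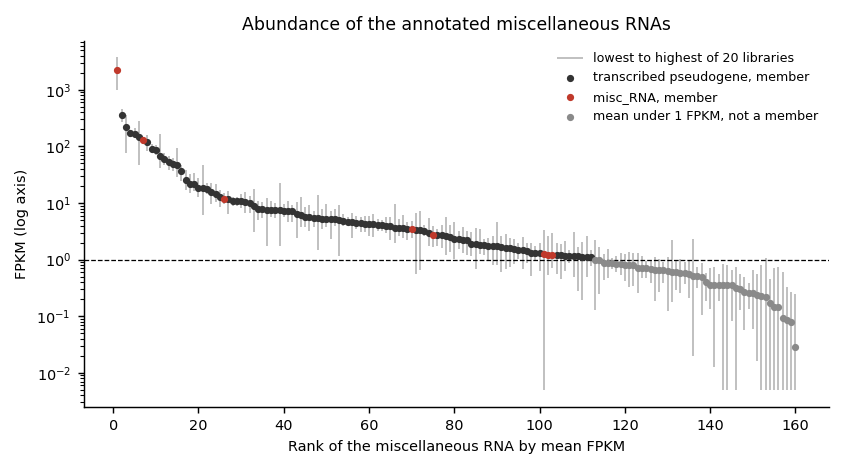
Mean FPKM of the misc RNAs by rank (log axis), with grey lines from the lowest to the highest of the 20 libraries and a dashed line at 1 FPKM. One misc RNA, at a mean of 2199 FPKM, stands apart from the next at 364, 112 lie above the line, and the misc RNA at 0 in every library is left out. Values at 0 are drawn at the lower end of the axis range.

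At the threshold, LOC102183803 (XR_001296369.2) at a mean of 1.12 FPKM, LOC102178404 (XR_001297074.2) at 1.12 and LOC108634525 (XR_001917646.1) at 1.12 were just inside. LOC102173921 (XR_001295715.2) at 0.996, LOC102188201 (XR_001917627.1) at 0.977 and LOC102171304 (XR_001918059.1) at 0.888 were just outside. Of the 112, 97 had a mean of at least 1 FPKM in each of the 4 groups, and 15 were under it in at least 1 group, so that the threshold was passed there through the other groups. A value above 0 was listed in every library for 111 of the 112.

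The other misc RNAs of highest level differed in how steady they were. LOC102189078 (XR_001918811.1), of RefSeq type misc_RNA, had 143, 142, 145, 142 and 143 FPKM in SPA. LOC102175922 (XR_001297322.2), at rank 3, had 106, 350.0, 307, 235 and 329 FPKM in the same libraries and 285, 95.6, 359, 126 and 104 in SA. LOC102183898 (XR_001296727.2), inside CHEK2, the gene of a DNA damage checkpoint kinase, had 133, 286, 131, 63.0 and 90.8 FPKM in IMPA. In these last misc RNAs the libraries of 1 group spanned most of the range of all 20, and their levels overlapped between the groups. A mean within-group coefficient of variation of 40% or more was found for 7 of the 112, with the highest, 79.3%, for LOC102173699 (XR_001297174.2) inside ANKS1A, singled out after its values were seen. The median of this coefficient was 14.8% over the 112 and 17.5% over the 18414 transcripts tested.

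Among the 48 misc RNAs that overlap a coding gene, 23 had a higher mean FPKM than the summed mRNAs of that gene, and 9 were more than 10 times higher. FPKM is per length, but the level of a single pseudogene copy is uncertain wherever reads were divided between copies. The levels are therefore set side by side as a description only. LOC108638047 (XR_001919568.1) had a mean of 169 FPKM inside CACNB4, the gene of a calcium channel subunit, whose mRNAs summed to 0.280 FPKM. LOC102190045 (XR_001296292.2) had 90.1 FPKM inside ASXL2, a chromatin regulator, at 3.59 FPKM, and LOC108636537 (XR_001918416.1) had 117 FPKM inside PBK, a mitotic kinase, at 9.91 FPKM. LOC108634457 (XR_001917612.1), singled out after its values were seen, had 21.6 FPKM inside TENM1 at 0.0210 FPKM. At the other end, LOC102173195 (XR_001296175.2, also singled out) had 10.6 FPKM inside TPM1, the gene of an actin-binding tropomyosin, at 981 FPKM. In 18 pairs the misc RNA was above the coding gene in each of the 20 libraries and in 19 pairs in none. The RefSeq table used gives no strand, and whether reads were assigned by strand is not given in the sources used here, so reads of a misc RNA and of its overlapping gene are not strictly separable.

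**Figure D2:**
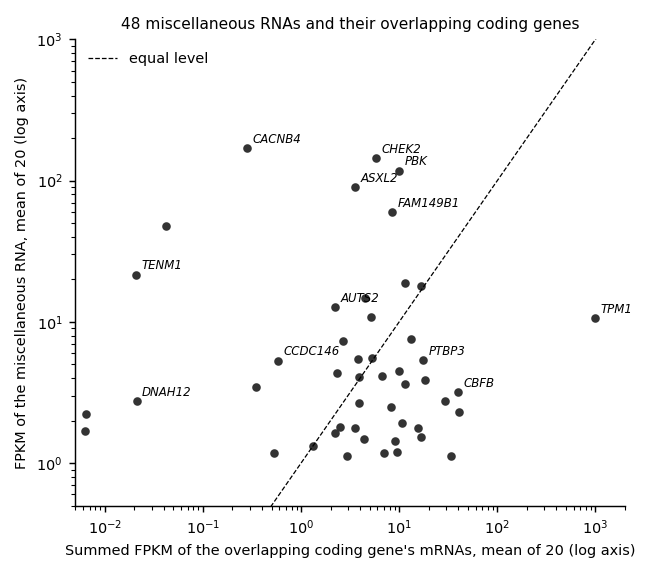
Mean FPKM over 20 libraries of the 48 misc RNAs that overlap a coding gene against the summed mRNA FPKM of that gene (both axes log), with the line of equal level dashed. Points above the line, 23 in number, are misc RNAs above their coding gene, with CACNB4 (169 against 0.280 FPKM) the highest and TPM1 (10.6 against 981) far below the line.

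The first comparison asked how the misc RNAs differ between the depots before induction. In IMPA against SPA, 55 of the 112 had an adjusted p under 0.05 (49.1%; 50.9% of all 18414 transcripts), 41 higher in intramuscular cells (background 29.3%) and 14 lower (background 21.6%). After induction, in IMA against SA, 50 did (44.6%; background 46.3%), 15 higher in intramuscular cells (background 19.3%) and 35 lower (background 27.1%). The total share called was thus close to the background at both times. Adjusted p-values here are from limma on log2(FPKM + 1), and each difference is given on that scale, which understates changes of low transcripts. The median difference over the 112 was 0.16 before and -0.17 after induction, against 0.06 and -0.09 over all transcripts tested. Upper-quartile scaling moved the median over all transcripts to 0.18 and 0.03, and the calls to 51 higher and 10 lower before induction and 17 higher and 21 lower after. With quantile normalization the split before induction was 28 higher and 24 lower. Libraries were also scaled to a common FPKM sum, counted without LNC_010228, a newly assembled lncRNA, which gave 35 higher and 20 lower. No share over all transcripts was computed under these scalings, so their counts are descriptive only.

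Between the depots, 13 misc RNAs were higher in intramuscular cells at both times (11.6%; 14.5% of all transcripts), 12 were lower at both times (10.7%; background 13.8%) and 7 were higher before induction and lower after it (6.25%; background 4.07%), while 39 were called at neither time. Of the 97 with a mean of at least 1 FPKM in each group, 35 were higher and 12 lower before induction, and 8 higher and 33 lower after. A difference of at least 1 on the log2 scale with an adjusted p under 0.05 was reached by 8 misc RNAs at 1 time or both. For these 8, the split among the 97 and the 39 called at neither time, no share over all transcripts was computed. These counts are therefore descriptive only.

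LOC102180517 (XR_001917728.1), the most abundant, had 2792, 2871, 3229.8, 2637 and 3111 FPKM in IMPA and 1039, 1192, 1207, 1132 and 1207 in SPA. After induction it had 3471, 3566, 3482, 3723 and 3745 FPKM in IMA and 1173, 1002, 1030.5, 1200.5 and 1176 in SA. Every intramuscular library lay above every subcutaneous one. The means were 2.53-fold higher in IMPA than in SPA (log2 difference 1.34 ± 0.06 SE, adjusted p = 4.85e-08 from limma) and 3.22-fold higher in IMA than in SA (1.69 ± 0.06 SE, adjusted p = 3.31e-09). This transcript made up 53.4% to 65.5% of the FPKM sum of the 112 in intramuscular libraries and 26.9% to 34.3% in subcutaneous ones. Without it, the sum of the others was 2336 ± 168 FPKM (SD, n = 5) in IMPA, 2080.0 ± 114 in IMA, 2386 ± 119 in SPA and 2522 ± 173 in SA.

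LOC102190867 (XR_001917577.1), whose nearest coding gene is PLS3, an actin-bundling protein gene, had 6.07, 6.22, 6.26, 5.03 and 6.6 FPKM in IMPA and 0.816, 0.709, 0.649, 0.761 and 0.957 in SPA. In IMA it had 5.62, 5.07, 6.12, 5.26 and 5.85 FPKM, and in SA 0.861, 0.563, 0.934, 0.724 and 0.944. The depots did not overlap, with log2 differences of 1.98 ± 0.08 (SE) before induction and 1.87 ± 0.09 after it. All subcutaneous values were under 1 FPKM, so this misc RNA passed the threshold only through the intramuscular libraries. Its depot differences are therefore given as a description. LOC108637897 (XR_001919417.1) had 4.63, 5.01, 6.26, 6.48 and 5.60 FPKM in IMA and 0.705, 1.01, 0.647, 0.663 and 0.876 in SA. It was higher in intramuscular cells after induction, without overlap, by 1.89 ± 0.10 on the log2 scale (SE). Its SA values were 0.647 to 1.01 FPKM, so the threshold favoured this difference too, and it is given as a description.

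The opposite depot difference was found for LOC102168395 (XR_001919613.1), near TANK, an adaptor gene of innate immune signalling. It had 2.67, 3.33, 2.30, 2.53 and 2.39 FPKM in IMPA against 7.60, 9.11, 7.39, 7.27 and 7.85 in SPA, and 1.92, 1.68, 1.57, 1.15 and 1.61 FPKM in IMA against 7.83, 7.52, 7.20, 9.36 and 6.48 in SA. All subcutaneous values were above all intramuscular ones (log2 differences of -1.28 ± 0.09 and -1.75 ± 0.11 SE, adjusted p = 8.12e-07 and 3.34e-07 from limma). LOC108634039 (XR_001917345.1), near the sorting receptor gene SORCS1, had 4.85 ± 0.14 FPKM in IMPA and 9.05 ± 0.70 in SPA (SD, n = 5), a log2 difference of -0.78 ± 0.06 (SE, adjusted p = 1.04e-06 from limma). LOC106502130 (XR_001918099.1) had 5.44 ± 0.46 FPKM in IMPA and 9.60 ± 0.52 in SPA (SD, n = 5), a log2 difference of -0.72 ± 0.06 (SE, adjusted p = 3.72e-06 from limma). Neither overlapped between the depots.

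**Figure D3:**
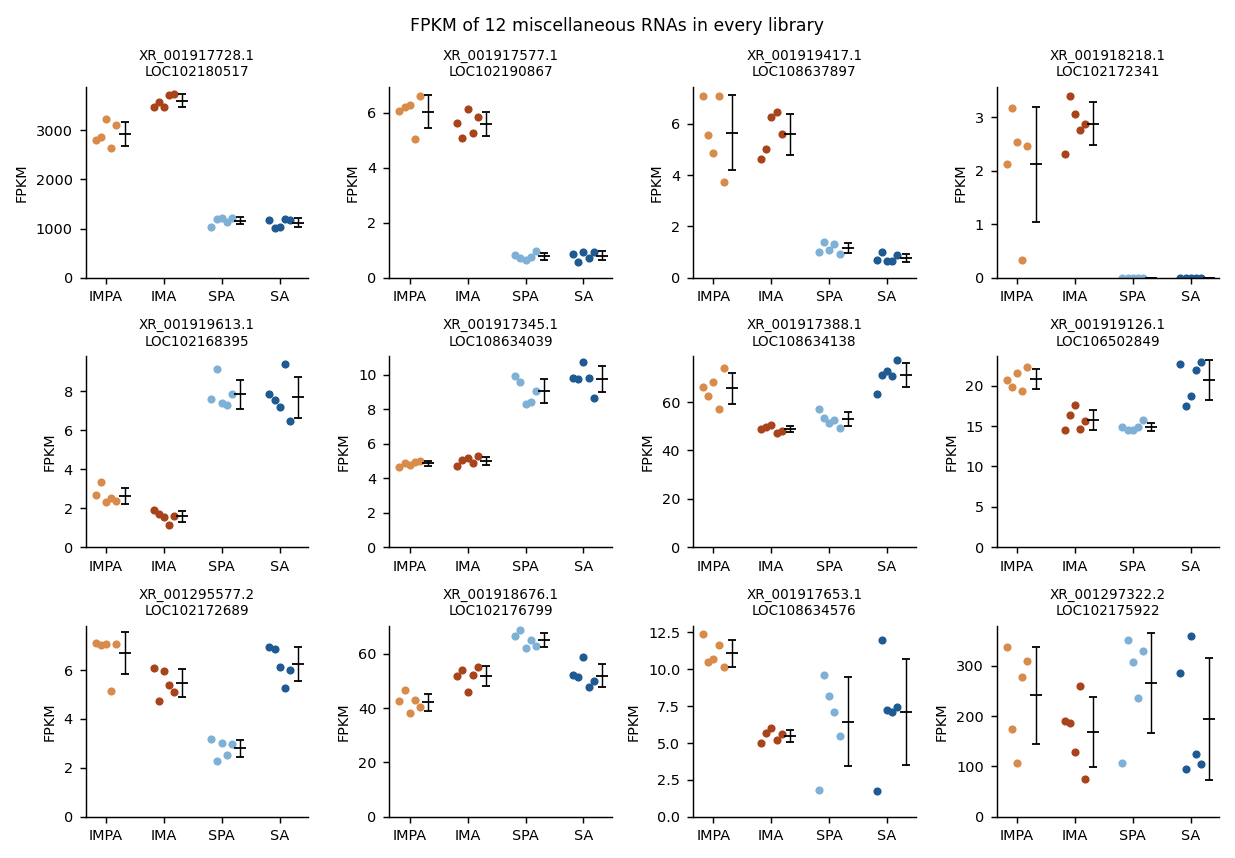
FPKM of 12 misc RNAs in every library (points, 5 per group, in replicate order), with the mean and SD of each group as a bar to the right. The first row holds misc RNAs higher in intramuscular cells, the second begins with a pair higher in subcutaneous cells, and the last panel shows LOC102175922, whose libraries ranged from 75.4 to 359 FPKM.

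Among the 8 misc RNAs of RefSeq type misc_RNA, LOC102172341 was the only gene with 2 transcripts above the threshold. XR_001918218.1 had 2.13, 3.17, 2.54, 0.323 and 2.46 FPKM in IMPA and 2.31, 3.40, 3.07, 2.77 and 2.87 in IMA, and was listed at 0 in each of the 5 SPA and 5 SA libraries. XR_001918219.1 of the same gene had 1.66, 0.724, 1.09, 3.01 and 1.69 FPKM in IMPA, 1.09, 0.736, 1.26, 1.63 and 0.913 in IMA, 0.919, 1.24, 1.25, 1.20 and 1.31 in SPA, and 1.12, 0.791, 0.761, 1.08 and 0.768 in SA. The second transcript overlapped between all groups, while the first was above 0 in the intramuscular libraries alone. The first passed the threshold on the mean only through those libraries, so its depot difference is given as a description. A listed 0 can be a failed estimate, so no fold is given. Replicate 4 of IMPA, lowest for the first transcript, was the highest for the second, and the sum of both transcripts was 3.76 ± 0.30 FPKM in IMPA, 4.01 ± 0.42 in IMA, 1.18 ± 0.15 in SPA and 0.905 ± 0.18 in SA (SD, n = 5). The share of the gene's FPKM taken by each transcript was fitted among 9657 transcripts of genes with several, and the shares of 2 transcripts are complements, so each comparison is 1 test. The adjusted p was 1.50e-04 for XR_001918218.1 between IMA and SA (limma, background 10.0%), a contrast that the threshold had favoured in the same way, and 0.103 between IMPA and SPA. With induction in intramuscular cells it was 0.496. In subcutaneous cells the first transcript was at 0 throughout, so no change of the share could be measured.

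**Figure D4:**
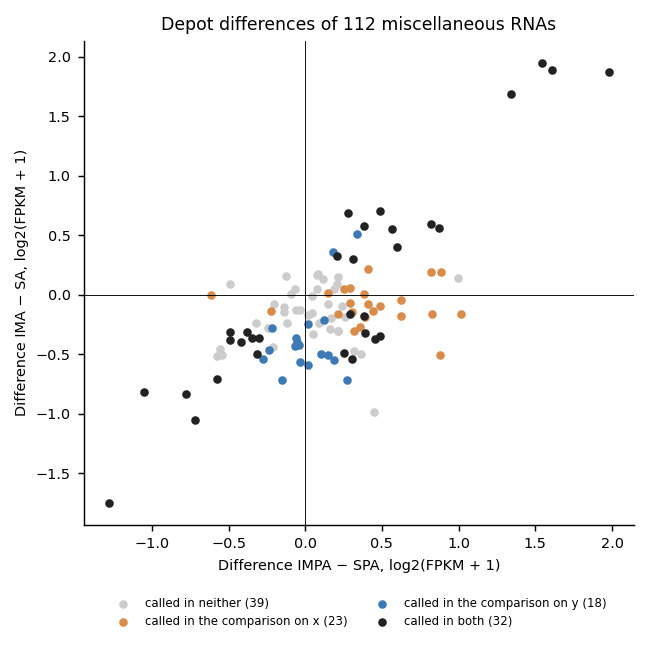
Difference between the depots in log2(FPKM + 1) of each of the 112 misc RNAs before induction (IMPA minus SPA, x axis) and after induction (IMA minus SA, y axis), coloured by where the adjusted p was under 0.05. The black points in the lower right are the 7 that were higher in intramuscular cells before induction and lower after it.

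The next comparisons asked how the misc RNAs change with induction in each depot. In intramuscular cells, IMA against IMPA, 28 of the 112 were called (25.0%; 32.6% of all transcripts), 5 up-regulated (background 11.7%) and 23 down-regulated (background 20.9%). In subcutaneous cells, SA against SPA, 27 were called (24.1%; background 25.9%), 22 up-regulated (background 14.6%) and 5 down-regulated (background 11.3%). The medians over the 112 were -0.14 and 0.12 on the log2 scale, against -0.08 and 0.00 over all transcripts tested. Changes were small, from -0.89 to 0.68 among those called in intramuscular cells and from -0.41 to 0.93 in subcutaneous cells. With upper-quartile scaling the subcutaneous calls were split into 12 up-regulated and 11 down-regulated, and with the common FPKM sum without LNC_010228 into 17 and 11. These counts too are descriptive, as no share over all transcripts was computed under the scalings. The mapped share of reads was higher in the preadipocytes than in the adipocytes of both depots, and higher in IMPA than in SPA, by the study's read statistics, so it cannot be told apart from these groups.

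In intramuscular cells, LOC108634576 (XR_001917653.1), on unplaced sequence, had 12.4, 10.5, 10.7, 11.7 and 10.2 FPKM in IMPA and 4.99, 5.70, 6.0, 5.17 and 5.64 in IMA. The groups did not overlap, and it fell by 0.89 ± 0.07 on the log2 scale (SE, adjusted p = 1.02e-05 from limma). Its adjusted p was 0.0514 when all 4 groups shared 1 fit. In subcutaneous cells it was uneven, at 1.82, 9.65, 8.21, 7.12 and 5.46 FPKM in SPA and 1.77, 12, 7.22, 7.10 and 7.41 in SA, with an adjusted p of 0.919 from limma.

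LOC102175457 (XR_001297265.2), inside AUTS2, a gene of neural development, had 16.7, 15.9, 16.9, 14.7 and 17.0 FPKM in IMPA and 12, 11.8, 9.14, 8.68 and 9.18 in IMA. It fell by 0.64 ± 0.09 on the log2 scale without overlap (SE, adjusted p = 0.000652 from limma). LOC108636123 (XR_001918147.1), near the peptide hormone gene ADM2, went from 7.04 ± 0.30 to 4.44 ± 0.44 FPKM (SD, n = 5), a log2 difference of -0.57 ± 0.07 (SE, adjusted p = 0.000182 from limma).

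LOC106501724 (XR_001918481.1), inside the splicing regulator gene PTBP3, fell in both depots. It had 5.70, 5.46, 5.43, 5.89 and 5.03 FPKM in IMPA, 4.04, 3.54, 3.81, 3.53 and 3.64 in IMA, 6.90, 7.78, 7.89, 6.47 and 6.20 in SPA, and 4.92, 4.99, 4.23, 5.17 and 6.03 in SA. The log2 differences were -0.46 ± 0.06 in intramuscular and -0.41 ± 0.09 in subcutaneous cells (SE, adjusted p = 0.000274 and 0.0095 from limma). LOC102186417 (XR_001296604.2), inside the coding gene LOC102186707, rose in both. It had 45.2, 48.1, 45.5, 45.8 and 48.3 FPKM in IMPA, 62.6, 58.3, 57.7, 58.7 and 56.1 in IMA, 43.3, 37.2, 39.6, 40.5 and 40.4 in SPA, and 46.8, 47.1, 49.5, 45.3 and 44.3 in SA. The log2 differences were 0.33 ± 0.03 and 0.21 ± 0.04 (SE, adjusted p = 0.0001 and 0.00508 from limma), without overlap in either depot. With upper-quartile scaling the adjusted p in subcutaneous cells was 0.0911.

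In subcutaneous cells, LOC102172689 (XR_001295577.2), inside CCDC146, a gene of a centriole protein, had 3.16, 2.30, 3.00, 2.53 and 2.97 FPKM in SPA and 6.94, 6.87, 6.11, 5.27 and 6.01 in SA. Its mean was 2.23-fold higher in SA, without overlap (log2 difference 0.93 ± 0.09 SE, adjusted p = 6.60e-05 from limma). In intramuscular cells it had 7.12, 7.02, 7.08, 5.16 and 7.06 FPKM in IMPA and 6.10, 4.73, 5.97, 5.39 and 5.12 in IMA, and the groups overlapped (adjusted p = 0.0774 from limma). LOC102190770 (XR_001297562.2) had 12.5, 13.6, 11.9, 13.5 and 12.4 FPKM in SPA and 16.4, 18.8, 17.2, 18.9 and 21.8 in SA, a log2 difference of 0.50 ± 0.07 without overlap (SE, adjusted p = 0.000669 from limma).

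**Figure D5:**
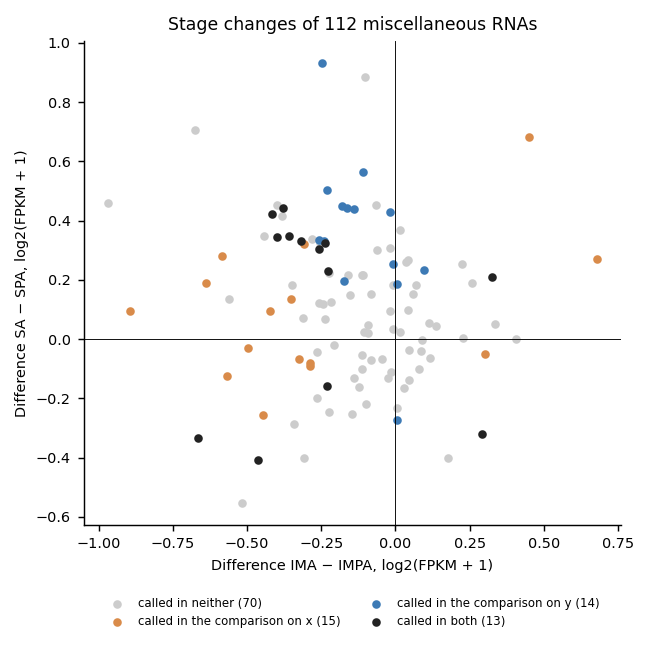
Difference with induction in log2(FPKM + 1) of each of the 112 misc RNAs in intramuscular cells (IMA minus IMPA, x axis) and in subcutaneous cells (SA minus SPA, y axis), coloured by where the adjusted p was under 0.05. Of the 13 called in both depots, 8 lie in the upper left, lower after induction in intramuscular cells and higher in subcutaneous cells.

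Of the 13 misc RNAs called in both depots, 8 fell in intramuscular cells and rose in subcutaneous cells, 1 did the reverse, 3 fell in both and 1 rose in both. Those 8 made up 7.14% of the 112, and 4.12% of all transcripts tested had this pattern. A further 15 were called in intramuscular cells alone and 14 in subcutaneous cells alone. A test of the interaction, the change in intramuscular minus that in subcutaneous cells, passed for 9 of the 13, 7 of the 15 and 9 of the 14. In all, the interaction was called for 31 of the 112 (27.7%; background 31.0%), with 2 more positive in intramuscular cells (background 11.2%) and 29 more positive in subcutaneous cells (background 19.8%). The median of the interaction was -0.22 over the 112 and -0.09 over all transcripts tested. The split stayed at 2 or 3 against 26 to 27 under the 3 scalings tried. The median over all transcripts was also negative there, at -0.10 with upper-quartile scaling, -0.02 with quantile normalization and -0.04 with the common FPKM sum. No share over all transcripts was computed under these scalings, so the split there is descriptive only. The proliferation markers had a transcript called higher with induction for 7 of 7 genes in subcutaneous cells and lower for 2 of 7 in intramuscular cells, where 0 had one called higher (limma, also 0 at an unadjusted p under 0.05). For the interaction, 7 of 7 proliferation genes had a transcript called negative, 8 of 11 muscle genes 1 called positive and 1 of 11 negative, and 2 of 9 stromal genes 1 called positive and 1 of 9 negative, with median interactions of -1.82, 1.80 and 0.27 over their transcripts. The part of these markers in the calls was not tested.

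LOC108634138 (XR_001917388.1), inside FAM149B1, a gene of a ciliary protein, had 66.4, 62.3, 68.3, 56.9 and 74.2 FPKM in IMPA, 48.7, 49.6, 50.5, 47.0 and 48.1 in IMA, 57.2, 53.4, 51.4, 52.7 and 49.4 in SPA, and 63.5, 71.4, 73.0, 70.9 and 77.4 in SA. It fell in intramuscular cells by 0.42 ± 0.06 on the log2 scale (SE, adjusted p = 0.000743 from limma) and rose in subcutaneous cells by 0.42 ± 0.05 (adjusted p = 0.000322). Neither pair of groups overlapped, and the interaction was -0.84 ± 0.09 (SE, adjusted p = 3.53e-07 from limma).

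LOC106502849 (XR_001919126.1), near NCALD, a calcium sensor gene, had 20.8, 19.9, 21.6, 19.3 and 22.4 FPKM in IMPA, 14.5, 16.3, 17.6, 14.7 and 15.6 in IMA, 14.8, 14.5, 14.5, 14.9 and 15.7 in SPA, and 22.6, 17.4, 18.8, 21.9 and 22.9 in SA. IMPA and SA were thus the high groups and IMA and SPA the low ones (interaction -0.82 ± 0.10 SE, adjusted p = 2.61e-06 from limma). LOC102186254 (XR_001297104.2), inside the axonemal dynein gene DNAH12, was also higher in IMPA and SA than in IMA and SPA, at a lower level, with 3.10 ± 0.21, 2.11 ± 0.27, 2.44 ± 0.10 and 3.36 ± 0.17 FPKM in IMPA, IMA, SPA and SA (SD, n = 5; interaction -0.74 ± 0.09 SE, adjusted p = 3.16e-06 from limma). For LOC102172689 inside CCDC146 (XR_001295577.2) the interaction was -1.18 ± 0.13 (SE, adjusted p = 1.25e-06 from limma).

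The reverse was found for LOC102176799 (XR_001918676.1), near CEP152, a centrosome gene. It had 42.7, 46.7, 38.1, 42.9 and 40.3 FPKM in IMPA, 51.7, 53.9, 46.1, 52.0 and 55.3 in IMA, 66.5, 68.7, 62.2, 65.1 and 62.8 in SPA, and 52.1, 51.3, 58.8, 47.9 and 49.9 in SA. The intramuscular groups overlapped and the subcutaneous groups did not, with log2 differences of 0.29 ± 0.06 and -0.32 ± 0.05 (SE, adjusted p = 0.0053 and 0.00153 from limma) and an interaction of 0.61 ± 0.08 (adjusted p = 1.36e-05). LOC102180517 (XR_001917728.1), the other with a positive interaction, rose in intramuscular cells by 0.30 ± 0.06 (SE, adjusted p = 0.00321 from limma). Upper-quartile scaling took that change to 0.21 (adjusted p = 0.0529), and quantile normalization turned it to -0.40 (adjusted p = 0.00426). By RT-qPCR with UXT as reference, which uses no FPKM scaling, the study reported this transcript as significantly up-regulated with intramuscular differentiation.

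Among the most abundant misc RNAs, LOC108636572 (XR_001918468.1), near the metalloprotease gene ADAM28, had 188 ± 7.0 FPKM in IMPA, 160.5 ± 8.33 in IMA, 153 ± 5.56 in SPA and 179.8 ± 12.3 in SA (SD, n = 5), with an interaction of -0.46 ± 0.06 (SE, adjusted p = 1.84e-05 from limma). Its rise in subcutaneous cells (adjusted p = 0.00587 from limma) was not called with upper-quartile scaling or quantile normalization (adjusted p = 0.0871 and 0.0582). LOC102181479 (XR_001297494.2), near the G protein-coupled receptor gene GPR174, had 98.1 ± 5.13, 83.1 ± 2.64, 75.2 ± 3.65 and 94.6 ± 9.14 FPKM in the same order (SD, n = 5), with an interaction of -0.56 ± 0.08 (SE, adjusted p = 1.93e-05 from limma). LOC108638047 inside CACNB4 (XR_001919568.1) had 162 ± 5.39 FPKM in IMPA and 162 ± 6.04 in IMA (SD, n = 5; adjusted p = 0.899 from limma), and rose in subcutaneous cells from 160.5 ± 6.71 to 192 ± 15.7 FPKM (SD, n = 5; adjusted p = 0.00766, and 0.0988 with upper-quartile scaling).

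The overlapping coding genes were set beside the misc RNAs called. Of the 8 in coding genes that were called with induction in intramuscular cells, 1 had an mRNA of that gene called the same way, and 1 had an mRNA called the other way. Both of these were the misc RNA in TPM1, whose gene had 16 transcripts tested. For 3 of the 8, no mRNA of the coding gene was tested, so no call was possible. Of the 13 in subcutaneous cells, 5 had no mRNA of the gene tested, 1 had an mRNA called the same way and 0 the other way (limma, also 0 at an unadjusted p under 0.05). That was LOC108636537 (XR_001918416.1) in PBK, at 125 ± 8.84 FPKM in SPA and 143 ± 10.1 in SA, while the PBK mRNA had 4.68 ± 0.63 and 17.9 ± 1.56 FPKM (SD, n = 5). The call of this misc RNA (adjusted p = 0.0429 from limma) was lost in 9 of 10 fits that left out 1 library, in each but that without SPA1, and with upper-quartile scaling, quantile normalization and the common FPKM sum without LNC_010228 (adjusted p = 0.146, 0.546 and 0.191). Between the depots, of 24 called before induction 8 had an mRNA called the same way and 5 the other way, and of 22 called after induction 6 and 5. No mRNA of the gene was tested for 4 of the 24 and 6 of the 22. The share of all coding genes with a called mRNA was not computed, so no agreement or lack of it is read from these counts. Before induction, the depot values of the same misc RNA in PBK went apart from the mRNA. The mRNA was higher in IMPA than in SPA, 9.14 ± 0.96 against 4.68 ± 0.63 FPKM (SD, n = 5). The misc RNA was lower, 101 ± 11.3 against 125 ± 8.84 (SD, n = 5; adjusted p = 0.00876 from limma, and 0.145 with upper-quartile scaling). After induction both were called lower in IMA than in SA. The mRNA had 7.96 ± 0.83 against 17.9 ± 1.56 FPKM (SD, n = 5), and the misc RNA 97.2 to 106 against 136 to 160.5.

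Transcripts without an intact reading frame can be cleared by nonsense-mediated decay or the nuclear exosome, and their splicing depends on SR proteins and hnRNPs. With induction in intramuscular cells, 6 of 12 genes of nonsense-mediated decay, 5 of 6 of the exon junction complex, 8 of 11 found of the nuclear exosome, 6 of 11 found of the SR proteins and 13 of 15 found of the hnRNPs had a transcript called lower, and 0, 0, 0, 2 and 4 a transcript called higher (limma; 0, 0, 0, 2 and 5 at an unadjusted p under 0.05). The median log2 differences of their transcripts were -0.16, -0.24, -0.31, -0.34 and -0.15, against -0.08 over all transcripts tested. A gene with many transcripts is more easily counted here, and by transcript 7 of 15, 5 of 10, 8 of 11, 7 of 40 and 20 of 68 were called lower, beside 20.9% of all transcripts tested. In subcutaneous cells 4, 0, 1, 1 and 2 genes had a transcript called lower and 0, 3, 1, 2 and 6 a transcript called higher (limma; at an unadjusted p under 0.05, 5, 1, 2, 3 and 5 lower and 0, 4, 2, 2 and 7 higher), with medians of -0.19, 0.12, 0.07, 0.02 and 0.10 against 0.00 over all. By transcript, 0 of 15, 3 of 10, 1 of 11, 3 of 40 and 13 of 68 were called higher there, beside 14.6% of all. Called lower there were 4 of 15, 0 of 10, 1 of 11, 1 of 40 and 2 of 68, beside 11.3% of all. Their part in the levels of the misc RNAs was not tested.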

How the data were processed

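Total RNA of 20 libraries in 4 groups of 5 was sequenced with a strand-specific (dUTP) protocol. The authors deposited FPKM values per transcript in 3 tables (annotated lncRNAs, newly assembled lncRNAs and mRNAs), with HISAT2 2.0.4, GATK 2.6-5 and StringTie 1.3.1 named in the submitters' processing notes, and the genome ARS1 in the study's methods. No counts are given, so the depth behind a value is unknown and no interval of counting error can be given. All value columns were matched to a sample.

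Values were used as log2(FPKM + 1). Of 57378 transcripts, the 18414 with a mean of at least 1 FPKM were tested with limma 3.58.1 (R 4.3.3), moderated variances with a trend, 10 libraries per comparison and 20 for the interaction, with Benjamini-Hochberg adjustment over all and a threshold of 0.05. A low value or a listed 0 is compressed by the pseudocount of 1. Named were the 10 most abundant misc RNAs, the 5 with the smallest p per comparison (without overlap between groups where groups were compared), up to 3 per isoform ratio comparison, and 3 on each side of the threshold. Members and lists were chosen with earlier results of these data known. No misc RNA shares a gene ID with an mRNA, so overlapping genes of ARS1.2 stood in as hosts, by name only, since the builds differ. Marker and RNA surveillance lists were counted gene by gene.

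The fit was tested on simulated data of 18414 transcripts, of which 18214 had no true change. In the real group comparisons 4777 to 9364 were called, so the shares recovered below belong to sparser changes than those of these data. Falls that would have reached 0 were simulated as rises. The limit that the fit had to pass was changed after it had first been missed in some comparisons. For the change in intramuscular cells, 44.9%, 67.7% and 89.4% of true log2 changes of 0.5, 1 and 2 were called, and for that in subcutaneous cells 50.7%, 70.8% and 80.3%. No pairing was used, because the goat behind a replicate number is not given. Same-numbered libraries did not deviate together (correlations from -0.0411 to 0.0591 across comparisons), which does not show that the groups were unpaired. Alternatives were other filters, a pseudocount of 0.1, 3 scalings, all 4 groups in 1 fit, a replicate block, other variance models and leaving out libraries. Figures were drawn with matplotlib 3.10.9.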

Additional observations from a re-analysis of the deposited data

Results flagged for a closer look

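Among 134 groups of 5 values of the misc RNAs named, 7 had a library far from the other 4, and chance alone would place about 1 in 20 groups there. In SA4, LOC108637143 (XR_001918790.1) was the lowest of its group at 346 FPKM against 399.8 to 416 in the others. LOC108636537 (XR_001918416.1) was lowest in IMPA4 at 81.8 FPKM against 102 to 110.0, and highest in SA4 at 160.5 FPKM against 136 to 140.3. LOC102172689 (XR_001295577.2) was lowest in IMPA4 at 5.16 FPKM against 7.02 to 7.12. LOC106502130 (XR_001918099.1) was highest in IMA1 at 4.60 FPKM against 2.45 to 3.07. LOC102172341 (XR_001918219.1) was lowest in SPA1 at 0.919 FPKM against 1.20 to 1.31, and LOC102178404 (XR_001297074.2) highest in SA2 at 2.63 FPKM against 1.18 to 1.28.

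The change with induction differed between the depots, by the interaction in limma, for 14 of the misc RNAs named. The interaction was positive for XR_001917728.1 (0.35 on the log2 scale) and XR_001918676.1 (0.61). It was negative for XR_001295577.2 (-1.18), XR_001917388.1 (-0.84), XR_001297265.2 (-0.83), XR_001919126.1 (-0.82), XR_001297104.2 (-0.74), XR_001297562.2 (-0.73), XR_001297494.2 (-0.56), XR_001919613.1 (-0.46), XR_001918468.1 (-0.46), XR_001918147.1 (-0.44), XR_001296292.2 (-0.37) and XR_001919568.1 (-0.26).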

How the results depend on the processing

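The number of misc RNAs called stayed within 1.5 times the reported one under each alternative for the 4 group comparisons and the interaction. Leaving out 1 library gave 25 to 31 calls in intramuscular cells with induction, 23 to 30 in subcutaneous cells, 49 to 53 between the depots before induction, 42 to 52 after it and 28 to 36 for the interaction. With the replicate block, whose numbers are not stated to be goats, 24, 18, 49, 41 and 32 were called in the same order. Shares over all transcripts were not computed for these alternatives. For the isoform ratio of LOC102172341, the block changed no count, while a pseudocount of 0.1 and the fit of all 4 groups called 2 transcripts between IMPA and SPA where 0 were reported. Leaving out 1 library gave 0 to 2 there (2 without IMPA4), 2 in each fit after induction, and 0 in each stage comparison, where the subcutaneous share could not be measured.

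Quantile normalization reversed XR_001917728.1, to -0.40 with induction in intramuscular cells and -0.19 for the interaction, the latter with an adjusted p of 0.204 from limma. Of 92 called values of the misc RNAs named, 82 kept their call whichever library was left out, and 10 lost it at least once. Many were named for a small p without overlap in these same data, which favoured keeping the call. The 92 also hold depot differences that the threshold favoured, and both complementary shares of LOC102172341. Upper-quartile scaling took the call from 15 of the 92, quantile normalization from 6 besides those reversed, and the replicate block from 10. A threshold of 1 FPKM on the median gave 109 misc RNAs, and on each group mean 97. Without counts, the precision of misc RNAs near 1 FPKM is unknown.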
